A study of Mus musculus with 6 samples.

Results

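The 9 genes described here encode subunits of the vacuolar proton pump (V-ATPase) that exist as a widely used and a tissue-restricted isoform. They were chosen by gene symbol, Atp6v0a1, Atp6v0a2 and Atp6v0a4 for subunit a, Atp6v0d1 and Atp6v0d2 for subunit d, Atp6v1b1 and Atp6v1b2 for subunit B, and Atp6v1c1 and Atp6v1c2 for subunit C. All 9 were found among the 55401 gene IDs of the count tables. The choice was made with the comparison of these libraries already known, so the differences of the 9 genes between the groups are given as a description with a standard error, and the count of them called is given once, beside that over all genes, with nothing read from it. Polyadenylated RNA came from primary mouse cholangiocytes, the lining epithelium of the bile ducts, with 3 libraries from wild-type animals (WT) and 3 from animals with polycystic liver disease (PLD). Both groups were sampled 3 months after tamoxifen, and the cells were isolated by bead selection for EpCAM, a surface protein of epithelia. The labels name neither the gene deleted in the PLD mice nor the Cre driver, and do not say whether animals were pooled or whether the libraries came from separate animals, so errors and p-values measure the spread between these libraries, which may be technical.

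The V-ATPase uses ATP to move protons across membranes. Its membrane sector, V0, holds the proton path and includes subunits a and d, and its peripheral sector, V1, carries out ATP hydrolysis and includes subunits B and C. In most cells the pump acidifies lysosomes, endosomes and the Golgi, while in acid-secreting cells, such as the intercalated cells of the kidney collecting duct, it also sits in the plasma membrane and contains restricted isoforms. Atp6v0a4 and Atp6v1b1 are known for such a renal pump, and loss of either gene causes distal renal tubular acidosis in people. Bile ducts are known to secrete bicarbonate, with carbonic anhydrases and anion exchangers.

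Of the 4 restricted isoform genes, Atp6v0a4 alone was read at an appreciable level, and it was so in the PLD libraries, with 132 ± 29.3 normalised read counts (CPM) against 3.11 ± 1.33 CPM in WT (mean ± SD, n = 3 libraries each). Atp6v1b1 and Atp6v1c2 had at most 5 reads in any library, and Atp6v0d2 had at most 32. The widely used isoforms of the same subunits were read at 49.1 to 118.998 CPM as group means, with differences between the groups of less than 1.5-fold. CPM here are reads relative to the library total after scaling by the trimmed mean of M values (TMM), and 3 reads correspond to 0.177 to 0.207 CPM. In these bulk samples a change in the number of cells that express a gene and a change in its RNA per cell cannot be told apart.

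The upstream sequences of 3 of these genes are shown because they place the gene that was read in PLD beside a renal-type gene with almost no reads and a widely used partner. RefSeq (GRCm38.p6) start sites were matched for 5 of the 9 genes. The 250 bases before the start are given in the direction of transcription, with CpG dinucleotides in capitals. The window of Atp6v0a4 is chr6:38124587-38124836 on the minus strand, that of Atp6v1b1 is chr6:83742767-83743016 on the plus strand, and that of Atp6v0d1 is chr8:105566065-105566314 on the minus strand.
Atp6v0a4: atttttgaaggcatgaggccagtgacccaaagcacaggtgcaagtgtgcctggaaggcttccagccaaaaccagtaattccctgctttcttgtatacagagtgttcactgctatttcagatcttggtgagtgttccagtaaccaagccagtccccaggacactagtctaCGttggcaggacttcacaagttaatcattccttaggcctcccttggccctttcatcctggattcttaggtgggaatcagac
Atp6v1b1: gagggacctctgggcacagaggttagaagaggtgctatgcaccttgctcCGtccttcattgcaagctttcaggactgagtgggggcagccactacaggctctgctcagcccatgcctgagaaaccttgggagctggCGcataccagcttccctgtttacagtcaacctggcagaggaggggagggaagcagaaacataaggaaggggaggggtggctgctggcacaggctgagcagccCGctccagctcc
Atp6v0d1: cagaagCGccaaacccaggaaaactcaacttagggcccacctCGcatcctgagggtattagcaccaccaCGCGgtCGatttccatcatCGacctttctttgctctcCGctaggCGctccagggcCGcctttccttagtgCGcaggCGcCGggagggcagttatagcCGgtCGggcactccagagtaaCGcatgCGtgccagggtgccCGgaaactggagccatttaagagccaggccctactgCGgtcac
Atp6v0a4 had 1 CpG in this window and an observed to expected CpG ratio of 0.0685, lower than in most of the 32851 windows of the table (percentile 10.1). Atp6v1b1 had 3 CpGs and a ratio of 0.137 (percentile 20.4), and Atp6v0d1 had 18 CpGs and a ratio of 0.795 (percentile 80.7). Atp6v1c2, whose RNA was also near 0, had 15 CpGs and a ratio of 0.591, but its window starts from a RefSeq site inside the gene model of the count tables. A search of both strands for the forkhead core GTAAACA, the kind of sequence bound by the intercalated cell factor Foxi1, gave 1 match in Atp6v1b1 and 0 in Atp6v0a4, Atp6v0a1, Atp6v0d1 and Atp6v1c2, and 3.17% of all windows hold it. The E-box CACGTG, which the lysosomal factors of the MiT-TFE family bind, had 0 matches in the 5 windows and is held by 6.02% of all windows. The RefSeq starts of Atp6v0a1 and Atp6v1b1 also lie inside their gene models, and the Atp6v1b1 window runs past the start of its model at 83742990. The bases just after the RefSeq starts of Atp6v0a1 and Atp6v0d1 did not occur in a GENCODE transcript of the gene.

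**Figure D1:**
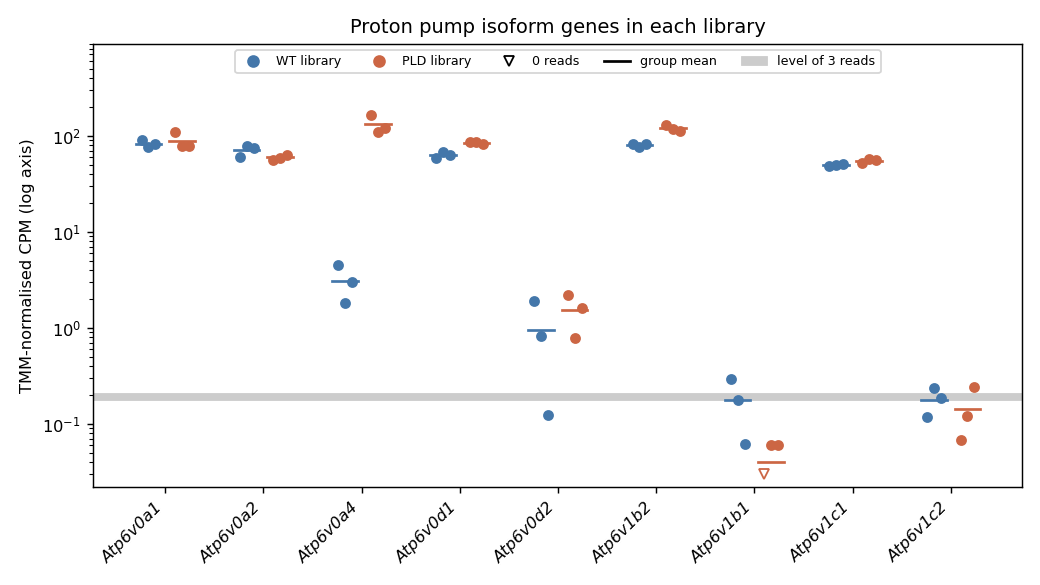
TMM-normalised CPM (log axis) of the 9 isoform genes, with a point for each library, a bar for each group mean, an open triangle for 0 reads and a grey band for the level of 3 reads. Atp6v0a4 separates the groups widely, from 1.83 to 4.48 CPM in WT and from 110.5 to 165 CPM in PLD, while Atp6v1b1 and Atp6v1c2 lie near or below the level of 3 reads in both groups.

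In the V0 sector, subunit a anchors the pump in its membrane, directs it to a compartment and forms part of the proton path. Atp6v0a4 (ENSMUSG00000038600.12, mm10 chromosome 6, 38048483 to 38124586, minus strand, 23 merged exons) had 76, 31 and 49 reads in WT replicates 1, 2 and 3 and 2402, 1811 and 2007 reads in PLD replicates 1, 2 and 3. On the CPM scale these were 4.48, 1.83 and 3.03 in WT and 165, 110.5 and 121 in PLD. Every PLD library was far above every WT library, and replicate 1 was the highest of both groups. The log2 fold change of PLD against WT was 5.40 ± 0.32 (SE, edgeR), the 20th largest of the 15334 genes tested. Over the summed reads of each group the ratio of PLD to WT per total reads was 39.7, with a 95% exact binomial interval of 33.9 to 46.9 that covers counting error only. Without any 1 library the log2 fold change lay between 5.13 and 5.77.

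Atp6v0a1 and Atp6v0a2, whose products work in lysosomes, synaptic vesicles, endosomes and the Golgi, were read in all libraries at similar levels. Atp6v0a1 had 90.0, 75.7 and 82.6 CPM in WT replicates 1 to 3 and 109.7, 79.1 and 77.9 CPM in PLD replicates 1 to 3. The groups overlapped, and PLD replicate 1 stood above the other libraries. Its log2 fold change was 0.10 ± 0.15, and -0.07 without PLD replicate 1. Atp6v0a2 had 60.3, 77.9 and 74.9 CPM in WT and 56.4, 58.9 and 62.9 CPM in PLD, with WT replicate 1 inside the PLD range (log2 fold change -0.26 ± 0.12).

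As a share of all subunit a reads per kb of exon, Atp6v0a4 made up 2.01, 0.879 and 1.40% in WT replicates 1 to 3 and 45.1, 39.6 and 40.7% in PLD replicates 1 to 3. The fourth gene of the subunit, Tcirg1, which encodes isoform a3 of osteoclasts and other cells with secretory lysosomes, held 45.1 ± 2.08% in WT and 22.5 ± 1.54% in PLD (SD, n = 3). Atp6v0a1 held 29.1 ± 1.49% in WT and 21.4 ± 1.37% in PLD, and Atp6v0a2 held 24.4 ± 4.02% and 14.2 ± 2.47%. Tcirg1 was thus the largest part of subunit a RNA in each WT library and Atp6v0a4 the largest in each PLD library. The summed level of the 4 genes was 43.4 CPM per kb in WT and 63.1 CPM per kb in PLD as group means. In raw reads, without division by exon length, the share of Atp6v0a4 was 1.25% in WT and 38.0% in PLD.

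Subunit d couples the membrane ring to the rotor stalk of the pump. Atp6v0d1, the widely used gene (chromosome 8, 105524465 to 105566047, minus strand), had 57.9, 67.7 and 62.8 CPM in WT and 85.3, 85.9 and 81.7 CPM in PLD. All PLD libraries lay above all WT libraries by a narrow margin, with a log2 fold change of 0.42 ± 0.09. Atp6v0d2, known from kidney, osteoclasts and macrophages, had 32, 14 and 2 reads in WT and 32, 13 and 27 reads in PLD. The groups overlapped, and the WT libraries differed from each other more than the groups did. Its log2 fold change of 0.68 ± 0.74 was 0.18 without WT replicate 3 and 1.66 without WT replicate 1. The share of Atp6v0d2 in subunit d reads per kb was 1.01 ± 1.01% in WT and 1.19 ± 0.54% in PLD. Osteoclast and fused macrophage markers had a summed level of 74.4 to 98.9 CPM in WT and 71.5 to 112 CPM in PLD, and macrophage markers of 452 to 576 and 565 to 769 CPM, and their part in the Atp6v0d2 reads was not tested.

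**Figure D2:**
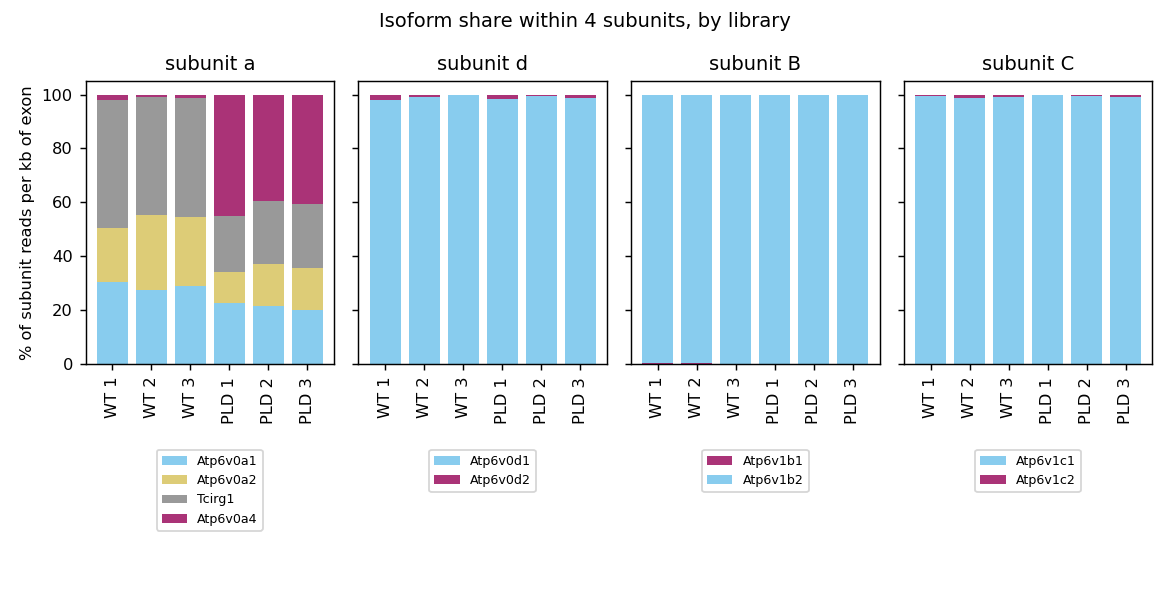
Percent of a subunit's reads per kb of exon held by each isoform gene, with a stacked bar for each library of WT and PLD. For subunit a the largest share is that of Tcirg1 in WT and of Atp6v0a4 in PLD (39.6 to 45.1%), while subunits d, B and C are held almost wholly by the widely used gene in all 6 libraries.

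In the V1 sector, subunit B forms part of the hexamer that binds ATP. Atp6v1b2 (chromosome 8, 69088646 to 69113711, plus strand) had 83.0, 77.2 and 82.4 CPM in WT and 128, 117 and 112 CPM in PLD. The groups did not overlap, and the log2 fold change was 0.56 ± 0.09. Atp6v1b1 (chromosome 6, 83742990 to 83758855, plus strand), the renal partner of Atp6v0a4, had 5, 3 and 1 reads in WT and 0, 1 and 1 reads in PLD. It did not pass the filter on low counts. Over 9 WT and 2 PLD reads the ratio of PLD to WT was 0.221, with a 95% exact binomial interval of 0.0233 to 1.07 that includes equality. At this depth no difference was detectable, and Atp6v1b2 made up 99.7 ± 0.17% of subunit B reads per kb in WT and 99.957 ± 0.037% in PLD.

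Subunit C clamps the stator stalks between the sectors and is released when the pump is taken apart. Atp6v1c1 (chromosome 15, 38661933 to 38692446, plus strand) had 48.0, 49.2 and 50.2 CPM in WT and 52.3, 56.5 and 56.4 CPM in PLD. The groups did not overlap, though the gap between WT replicate 3 and PLD replicate 1 was small (log2 fold change 0.17 ± 0.09). Atp6v1c2, known from kidney and lung, had 2, 4 and 3 reads in WT and 1, 2 and 4 reads in PLD. It was not tested, and the ratio of PLD to WT over the summed reads was 0.775, with a 95% exact binomial interval of 0.245 to 2.34. Atp6v1c1 held 99.1 ± 0.30% of subunit C reads per kb in WT and 99.3 ± 0.38% in PLD.

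Of the 9 genes 7 passed the filter on low counts, and 3 of these (Atp6v0a4, Atp6v0d1 and Atp6v1b2) had a higher level in PLD at a Benjamini-Hochberg adjusted p under 0.05 in the quasi-likelihood fit of edgeR, and 0 a lower level, where 27.0% of all tested genes were called higher and 28.4% lower. PLD lay above WT without overlap for 4 of the 7 and below WT for 0, where this held for 33.0% and 33.2% of all tested genes. As the genes were picked with this comparison known, these counts describe them and support nothing. In order of level per kb in WT, Atp6v0d1 (35.0 ± 2.72 CPM per kb) stood above Atp6v1b2 (15.2 ± 0.60) and Atp6v0a1 (12.6 ± 1.10) without overlap between libraries. Atp6v0a2 (10.6 ± 1.40) overlapped its neighbours Atp6v0a1 and Atp6v1c1 (8.77 ± 0.20), and the 4 restricted genes followed, each overlapping the next. In PLD, Atp6v0a4 (26.6 ± 5.89 CPM per kb) stood second after Atp6v0d1 (47.0 ± 1.27) and overlapped Atp6v1b2 (22.4 ± 1.53). It ranked 21st of 26 pump subunit genes per kb in WT and 7th in PLD.

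**Figure D3:**
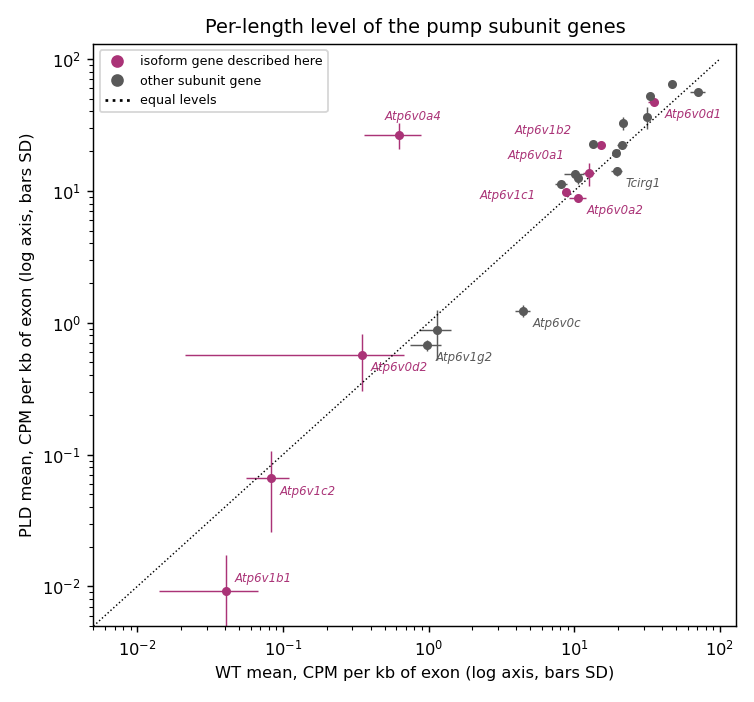
Mean CPM per kb of exon in PLD against WT on log axes, with SD bars (n = 3, cut where they reach the axis), for 24 of the 26 pump subunit genes, those with reads in both groups. Atp6v0a4 is the point that lies far above the dotted line of equal levels (0.626 in WT and 26.6 in PLD).

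The levels of cell type marker genes differed between the groups. Cholangiocyte markers summed to 9886 to 14450 CPM in WT and 33565 to 46301 CPM in PLD, with 14 of 16 called higher, and endothelial markers to 4830 to 6361 CPM in WT and 323 to 588 CPM in PLD, with all 12 called lower (edgeR). Fibroblast and stellate markers, from 7924 to 13579 CPM in WT and 1738 to 4606 CPM in PLD, were called lower for 10 of 12. Hepatocyte markers summed to 1350 to 2413 CPM in WT and 1899 to 6122 CPM in PLD, with 6 of 12 called lower and 2 higher. Most of that sum was Alb, with 1575 ± 430 CPM in WT and 3968 ± 2318 CPM in PLD, which overlapped and did not pass. Mesothelial markers summed to 121 to 170 CPM in WT and 777 to 1181 CPM in PLD, with 4 of 7 called lower and 2 higher. Most of the mesothelial sum in PLD was the single gene Msln, with 17.2 ± 1.41 CPM in WT and 934 ± 210 CPM in PLD. Immediate early genes, which respond to cell handling, summed to 21827 to 24467 CPM in WT and 14515 to 17578 CPM in PLD, with 4 of 8 called lower. The markers of the labelled cell type were thus read in every library, with more endothelial and fibroblast marker RNA in WT. Whether cell makeup differed, and its part in the differences of the pump genes, was not tested. Replicate 1 of PLD and of WT correlated less with the other libraries of its group (Pearson r 0.971 to 0.980 across genes on the log2 CPM scale) than replicates 2 and 3 did with each other (0.991 in PLD and 0.988 in WT). Library totals were 15768561 to 16710548 reads.

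Set against cholangiocyte markers in place of all reads, Atp6v0a4 was still higher in PLD, and the 5 widely used isoform genes were lower there in every library. Per 1000 reads of the 16 marker genes, Atp6v0a4 had 0.342, 0.185 and 0.210 reads in WT replicates 1 to 3 and 3.57, 3.01 and 3.59 in PLD replicates 1 to 3. The PLD libraries were close to each other on this scale, and their mean was 13.8 times that of WT. Atp6v0d1 had 5.21 ± 1.42 reads per 1000 in WT and 2.21 ± 0.32 in PLD, and Atp6v1b2 had 6.61 ± 1.08 and 3.10 ± 0.30 (SD, n = 3). Scaling the libraries by these markers gave a median log2 fold change of -1.64 over all tested genes. The log2 fold change was then 3.78 for Atp6v0a4, -1.24 for Atp6v0d1 and -1.09 for Atp6v1b2. The marker genes were themselves higher in PLD per total reads, and whether their own level per cell differed was not tested.

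The other pump subunits differed in both directions, with Atp6v0c the furthest from equal. They were listed by the composition of the enzyme, but with earlier results of these data known, so their counts are a description. Of 17 genes 15 were tested, 6 rose and 3 fell in PLD, beside 27.0% and 28.4% of all tested genes, with a median log2 fold change of 0.19 against 0.01 over all tested genes, and 6 did not pass. The rises were of Atp6v0e (0.75 ± 0.09), a small membrane subunit, Atp6v1f (0.64 ± 0.10) of the rotor stalk, Atp6v1e1 (0.61 ± 0.11) of the stator stalk, Atp6v1h (0.47 ± 0.10), a regulatory V1 subunit, Atp6ap2 (0.45 ± 0.09), an accessory protein also called the prorenin receptor, and Atp6v0e2 (0.41 ± 0.14). The 6 log2 fold changes had edgeR adjusted p-values from 3.90e-04 to 0.0357, and PLD lay above WT in all libraries for the 6 genes. Tcirg1 fell by 0.47 ± 0.10, from 90.1 ± 7.21 to 65.1 ± 5.15 CPM (adjusted p = 0.00685), Atp6ap1, another accessory protein gene, by 0.31 ± 0.11 (adjusted p = 0.0475) and Atp6v0c, the gene of the proteolipid ring, by 1.86 ± 0.17 (adjusted p = 1.57e-04, all edgeR). The catalytic subunit gene Atp6v1a stayed close to equal, with 117 ± 4.40 CPM in WT and 118 ± 4.63 CPM in PLD (log2 fold change 0.01 ± 0.09).

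The Atp6ap1 call was lost in 8 of 14 alternatives (adjusted p up to 0.148) and that of Atp6v0e2 in 4, each of them a fit without 1 library (adjusted p up to 0.123 without WT replicate 3). Under cholangiocyte marker scaling the 6 rises turned to falls. The counts of Atp6v0c, Atp6v1f and Atp6v1g1 are uncertain, since 10.8%, 11.2% and 19.2% of the 50-base stretches of their transcripts also occur in other genes. For Atp6v0c these include its pseudogene Atp6v0c-ps2, and Atp6v0c was read at 15.1 ± 1.78 CPM in WT and 4.16 ± 0.45 CPM in PLD. Rnasek shares 67.7% of its exon bases with another gene and is likewise uncertain.

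**Figure D4:**
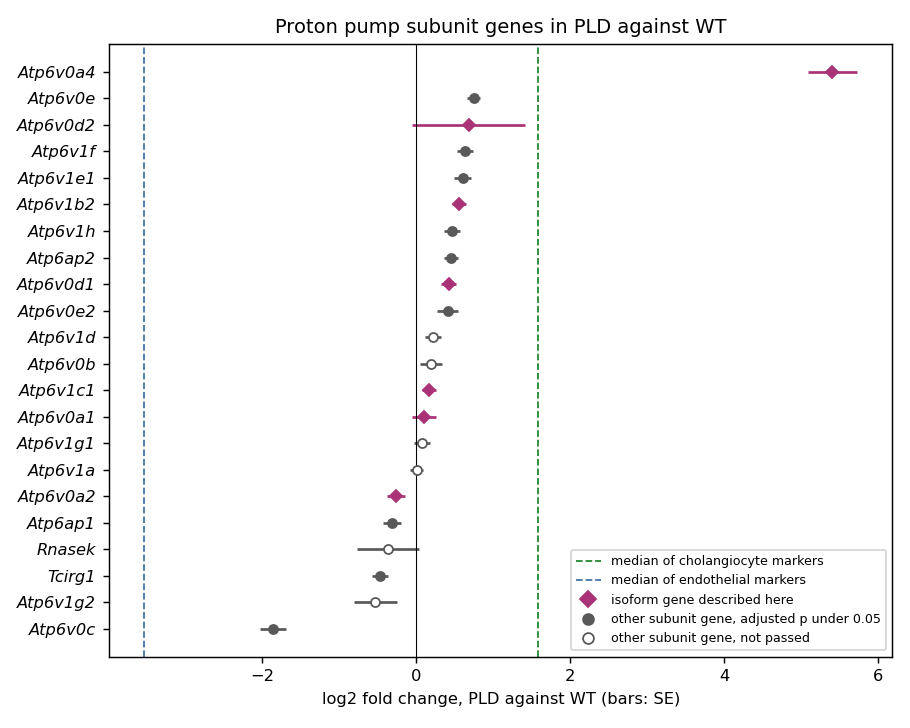
Log2 fold change of PLD against WT with SE bars for the 22 tested pump subunit genes, with diamonds for the isoform genes described here, circles for the others (filled for an adjusted p under 0.05) and dashed lines at the medians of the cholangiocyte (1.59) and endothelial (-3.52) markers. Atp6v0a4 lies at 5.40, beyond the cholangiocyte marker median, while the other pump genes lie between -1.86 and 0.75, below it.

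In the other subunits with isoform pairs the gene with the largest share was the same in both groups. Atp6v1g1 held 95.5 ± 1.36% of subunit G reads per kb in WT and 97.1 ± 0.32% in PLD, and Atp6v0e held 57.5 ± 4.11% of subunit e in WT and 62.9 ± 0.68% in PLD. The kidney gene Atp6v1g3 had 1, 1 and 0 reads in WT replicates 1 to 3 and 0 in each PLD library. Atp6v1e2, a testis gene, had 1, 0 and 0 reads in WT and 0 in each PLD library. A count of 0 allows up to 0.207 CPM in the library with the highest limit.

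Genes of pump assembly and regulation went both ways, with 3 of 11 tested higher and 4 lower in PLD (median log2 fold change -0.07, edgeR), shares near the 27.0% and 28.4% of all tested genes. Dmxl2 and Wdr7, which belong to the complex that joins V1 to V0, fell by 1.93 ± 0.13 and 0.74 ± 0.13 on the log2 scale (adjusted p = 5.62e-05 and 0.0028), and Ncoa7 and Tbc1d24, of the family of V-ATPase binding TLDc proteins, by 0.61 ± 0.10 and 0.95 ± 0.17. Oxr1 and Tldc1 of the same family rose by 0.42 ± 0.09 and 0.55 ± 0.18, and the assembly factor gene Tmem199 by 0.74 ± 0.15 (adjusted p = 0.0071, 0.029 and 0.0041). Endothelial markers had a median of -3.52 in these libraries, and their part in the falls was not tested.

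Of 22 genes linked to acid-secreting epithelium 9 were tested, 5 of them higher and 2 lower in PLD (27.0% and 28.4% of all tested genes), and the 13 others had too few reads. Among these 13 were Foxi1, Slc26a4 and Aqp6, which are genes of kidney intercalated cells, while Slc4a9 and Tfcp2l1 of the same list were called higher. Foxi1, the transcription factor of those cells, had 11, 1 and 3 reads in WT and 0 in each PLD library. Slc26a4 (pendrin) averaged 0.261 CPM in WT and 0.0200 CPM in PLD, and Aqp6 had 0 reads in all libraries. Others of the 13, such as Tmem213 and Dmrt2, had more reads in PLD. Tmem213 had 5, 3 and 2 reads in WT and 8, 9 and 7 in PLD. Dmrt2 had 2, 0 and 0 reads in WT and 4, 1 and 3 in PLD. Car2 and Hepacam2 were tested and did not pass (log2 fold change 0.99 ± 0.48 and 0.07 ± 0.36, edgeR). Car4, a membrane carbonic anhydrase gene, reached 96.6 ± 44.5 CPM in PLD against 5.49 ± 2.35 CPM in WT (edgeR adjusted p = 3.17e-04, log2 fold change 4.13 ± 0.45). The anion exchanger gene Slc4a9 had 24.6 ± 10.3 CPM in PLD and 2.79 ± 0.75 CPM in WT (adjusted p = 3.09e-04, log2 fold change 3.13 ± 0.34, edgeR). Tfcp2l1, a transcription factor gene of kidney epithelia, rose by 1.95 ± 0.21 and the growth factor receptor gene Kit fell by 3.39 ± 0.26 (edgeR adjusted p = 3.09e-04 and 7.79e-05). Car12 and Parm1 rose by 2.64 ± 0.52 and 1.76 ± 0.33, and Insrr fell by 2.45 ± 0.60 (edgeR adjusted p = 0.00417, 0.00316 and 0.0106). The Tfcp2l1 call was lost under cholangiocyte marker scaling (adjusted p = 0.235).

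Lysosomal genes, which share compartments with the pump, fell for 14 of 28 and rose for 3 (median log2 fold change -0.30, edgeR), where 28.4% of all tested genes fell and 27.0% rose. Endothelial markers fell for 12 of 12 and fibroblast and stellate markers for 10 of 12 in the same libraries, and their part in the falls of lysosomal genes and of Mitf and Tfec was not tested. Tpp1, a peptidase gene, fell by 1.03 ± 0.12, the acid lipase gene Lipa by 0.83 ± 0.11 and the glucuronidase gene Gusb by 0.82 ± 0.12, and Npc1, a cholesterol transporter gene, rose by 1.21 ± 0.16. Of the MiT-TFE transcription factor genes, which drive lysosomal genes and the widely used pump subunits, Tfeb did not pass (log2 fold change 0.07 ± 0.12). Tfe3 rose by 0.31 ± 0.10 (adjusted p = 0.0306, lost in 5 of 14 alternatives), Mitf fell from 9.82 to 3.22 CPM and Tfec from 10.4 to 1.22 CPM as group means (adjusted p = 6.85e-04 and 1.68e-04, edgeR).

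Among the genes with the pattern most like Atp6v0a4 across the 6 libraries were Wnt7a, a Wnt ligand gene, and Sycn. Their log2 CPM, centred on each gene's mean, differed from that of Atp6v0a4 by a root mean square of 0.23 and 0.30. Wnt7a was picked by likeness over the same 6 libraries, so its log2 fold change of 5.43 had to lie close to that of Atp6v0a4. Sycn averaged 0.0992 CPM in WT, below the level of 3 reads, so its fold change is not given. For Atp6v0d2 the nearest genes were Dbp, Muc13 and Ighj4 (0.57 to 0.60), a looser likeness in a gene of few reads.

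At the locus of Atp6v0a4 the nearest gene that does not overlap it and has at least 10 reads, Svopl, lies 1486 bases beyond its end on the same strand. Svopl rose by 3.45 on the log2 scale (edgeR adjusted p = 0.00279), with 3.79 ± 2.33 CPM in PLD and 0.339 ± 0.237 CPM in WT. Zc3hav1l, the nearest such gene on the other side at 162809 bases, fell by 0.81 (edgeR adjusted p = 0.0473). Beside Atp6v0d2, Ttpa fell by 2.08 (adjusted p = 0.00140), and Slc7a13 passed the test (log2 fold change 2.35, adjusted p = 0.0430) on PLD replicates 2 and 3, with 65 and 57 reads, while PLD replicate 1 had 4 reads and the WT libraries 5 to 11. Beside Atp6v1b1 and Atp6v1c2 the tested neighbours Cd207 and Nol10 did not pass (0.03 and 0.06). Exons of Atp6v0a4 overlap 62 bases of Tmem213 on the opposite strand and 259 bases of D630045J12Rik on the same strand. The PLD libraries held 7 to 9 reads of Tmem213 and 188 to 302 of D630045J12Rik, far fewer than the 1811 to 2402 reads of Atp6v0a4 there. The WT libraries held 2 to 5 reads of Tmem213 and 235 to 246 of D630045J12Rik, the latter more than the 31 to 76 reads of Atp6v0a4 there. Whether reads from the shared bases entered the low WT counts of Atp6v0a4 was not tested. The longest identical run between transcripts of Atp6v0a4 and another subunit a gene was 18 bases, between Atp6v0a1 and Tcirg1 29 bases, between Atp6v1b1 and Atp6v1b2 26 bases, between Atp6v1c1 and Atp6v1c2 15 bases, between Atp6v0d1 and Atp6v0d2 17 bases and between Atp6v0e and Atp6v0e2 47 bases.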

How the data were processed

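Each library has a deposited table of raw gene counts, made by the authors with featureCounts 1.6.0 on GENCODE vM25 of mm10, per the file headers. The command names no option for strand, pairs or multi-mapping reads, so reads of overlapping genes on opposite strands cannot be told apart. STAR 2.7.4a, SAMtools 1.12 and DESeq2 1.26.0 are named without settings, per the submitters' processing notes. Symbols were matched for 55141 of 55401 IDs.

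In edgeR 4.0.16 under R 4.3.3, filterByExpr kept 15334 genes with at least 99.8% of the reads of each library, TMM scaled the libraries, and the quasi-likelihood test compared PLD with WT, with Benjamini-Hochberg adjustment over all tested genes at 0.05. The biological coefficient of variation was 0.196. The SE was taken as the absolute log2 fold change divided by the square root of F. Levels between genes are compared as CPM per kb of merged exon length. Intervals are 95% exact binomial and cover counting error only. Replicates differed by 9.72 to 63.9 chi-square units per degree of freedom over genes with at least 50 reads, so none agreed within sampling noise. On simulated counts for the PLD and WT comparison (15334 genes, 200 changed), the test recovered 71.7% of 2-fold and 96.9% of 4-fold changes. In the data 4136 genes were called higher and 4357 lower, far more than were changed in the simulation, so these rates may not carry over.

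The members and all lists were chosen with earlier results of these data known. Named are the 9 genes, the other tested pump subunits, up to 4 genes of each associated list with the smallest p, the 3 genes nearest in pattern to a tested restricted isoform (1 is not reported here), and genes at their loci. Foxi1, Slc26a4, Aqp6, Tmem213, Dmrt2, Car2, Hepacam2, Car12, Parm1, Insrr, Atp6v1g3, Atp6v1e2, Oxr1, Tldc1, Tmem199 and Alb were named after their values were seen. Genes of the marker lists, other than Msln and Alb, are given as lists. Alternatives were DESeq2 1.42.0, limma-voom (limma 3.58.1), RLE and upper-quartile factors, scaling by 16 cholangiocyte markers, no filter, a filter of 1 CPM in 3 libraries, a replicate block, and leaving out each library. Shared 50-base stretches and identical runs were found in GENCODE vM21 transcripts.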

Additional observations from a re-analysis of the deposited data

How the results depend on the processing

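Under the 13 alternatives other than cholangiocyte marker scaling, the log2 fold change ranged from 5.13 to 5.77 for Atp6v0a4, 0.37 to 0.48 for Atp6v0d1, 0.51 to 0.61 for Atp6v1b2, 0.15 to 0.21 for Atp6v1c1, -0.36 to -0.18 for Atp6v0a2, 0.18 to 1.66 for Atp6v0d2 and -0.07 to 0.20 for Atp6v0a1. Under that scaling, 297 genes were higher and 13637 lower in PLD, and of the other pump subunits 0 were higher and 15 lower, of assembly genes 0 and 11, of acid-secreting epithelium genes 3 and 4, and of lysosomal genes 0 and 27. Log2 fold changes that changed sign there were those of Atp6v0d1 (-1.24), Atp6v1b2 (-1.09), Atp6v0a1 (-1.56), Atp6v0d2 (-0.99), Atp6v1c1 (-1.47), Atp6v0e (-0.90), Atp6v1f (-1.01), Atp6v1e1 (-1.05), Atp6ap2 (-1.20), Atp6v1h (-1.19), Atp6v0e2 (-1.24), Atp6v1d (-1.43), Atp6v0b (-1.43), Atp6v1g1 (-1.56), Atp6v1a (-1.63), Tfe3 (-1.33), Tfeb (-1.56) and Npc1 (-0.39), as the scaling lowers every gene in PLD by construction. With at least 1 CPM in 3 libraries, 1 acid-secreting epithelium gene was lower, as fewer were tested. Atp6v1a, near 0, changed sign under that filter (-0.0032), and over the fits without 1 library it ranged from -0.010 (without PLD replicate 3) to 0.046, with -0.0023 without WT replicate 1 and -0.0097 without WT replicate 2, and Tfeb from -0.0088 (without PLD replicate 2) to 0.14. With the replicate block, 3920 genes were higher and 4242 lower, and the Atp6ap1 call was lost (adjusted p = 0.0536). Libraries of the same number had correlated deviations of 0.156, 0.0363 and 0.0613, so the numbers were not taken to pair them. Depth limits Atp6v1b1 and Atp6v1c2, whose few reads leave wide counting intervals.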
